A study of Homo sapiens with 3 samples.

Results

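Ligand-gated ion channels open a pore when a transmitter binds, and the genes described here encode the subunits from which these channels are built. Members were chosen by gene symbol alone: nicotinic acetylcholine (CHRNA, CHRNB, CHRND, CHRNE, CHRNG), GABA-A (GABRA to GABRR), glycine (GLRA, GLRB), 5-HT3 (HTR3), ionotropic glutamate (GRIA, GRIK, GRIN, GRID) and P2X (P2RX) subunits. The rule found 70 of the 35880 gene symbols in the deposited table. They comprised 16 nicotinic, 19 GABA-A, 5 glycine, 5 5-HT3, 18 ionotropic glutamate and 7 P2X genes.

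The study profiled HEK293T cells, a line derived from human embryonic kidney that carries the SV40 large T antigen, by bulk RNA-seq of oligo-dT captured RNA. All 3 libraries belonged to a single group: untreated cells grown in high-glucose DMEM with 10% fetal bovine serum and harvested at 70% confluence. The libraries were labelled biological replicates, but whether each was a culture of its own is not stated, so the p-values below speak only to variation among these 3 libraries, which may be technical. Values are in TPM, a relative abundance that is scaled to the same total in every library and divided by transcript length, so that levels can be compared between genes.

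Nicotinic, GABA-A, glycine and 5-HT3 receptors are pentamers of related subunits and belong to the Cys-loop family. Ionotropic glutamate receptors are tetramers and P2X receptors, which bind ATP, are trimers. Most of these receptors are known from synapses and muscle, and HEK293 lines are widely used to express them from transfected DNA, where any subunit that the cells make themselves could also be present.

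Several results below turn on which sequence a gene's TPM was assigned to. The nicotinic alpha7 gene CHRNA7 is the clearest case, because part of it is duplicated in the hybrid gene CHRFAM7A. The stretch printed here joins the last 60 bases of exon 4 (chr15:32111840-32111899, plus strand, GRCh38, GENCODE 29) and the first 60 bases of exon 5 (chr15:32153907-32153966) of the coding sequence of transcript CHRNA7-223. Capitals mark bases lying in 31-base words that also occur in CHRFAM7A transcripts.
CHRNA7-223: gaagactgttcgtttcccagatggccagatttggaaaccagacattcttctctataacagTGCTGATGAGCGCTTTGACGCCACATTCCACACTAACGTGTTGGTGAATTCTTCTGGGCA
The switch from letters outside words shared with CHRFAM7A to shared letters fell exactly at the exon boundary. Of the 1320 coding bases of this transcript, 164 preceded the boundary and 87.3% were counted as shared, which is nearly all of those after it.

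The promoters of a pair of NMDA receptor genes are shown because these genes of the same subfamily had very different levels. The 250 bases before the RefSeq start of GRIN2D (chr19:48393418-48393667, plus strand) and of GRIN2B (chr12:13982135-13982384, minus strand) are printed 5′ to 3′ from RefSeq, build GRCh38.p14. Neither window overlaps an exon of GENCODE 29. Capitals mark each CG dinucleotide, which reads the same on both strands.
GRIN2D: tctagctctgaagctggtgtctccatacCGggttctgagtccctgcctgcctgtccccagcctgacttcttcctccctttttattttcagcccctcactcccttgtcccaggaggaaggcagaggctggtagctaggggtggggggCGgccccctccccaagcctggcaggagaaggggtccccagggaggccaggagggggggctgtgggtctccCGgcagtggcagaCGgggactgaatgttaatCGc
GRIN2B: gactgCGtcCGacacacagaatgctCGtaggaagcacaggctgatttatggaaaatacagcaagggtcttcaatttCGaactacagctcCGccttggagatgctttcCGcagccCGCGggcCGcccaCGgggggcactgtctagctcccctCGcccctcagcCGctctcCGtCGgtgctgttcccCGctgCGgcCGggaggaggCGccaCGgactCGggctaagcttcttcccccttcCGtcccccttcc
Both windows were 63.6% G and C, yet GRIN2D held 5 CG and GRIN2B 21. GRIN2D averaged 3.06 TPM and GRIN2B 0.00553 TPM. The GRIN2D window ended 1208 bases before the GENCODE 29 start of GRIN2D-201, the transcript that carried all of its TPM, and the GRIN2B window 178 bases before the nearest annotated start. The printed GRIN2D letters are therefore not those next to that start, and nothing is read from the pair about CG and level.

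Each gene was set against a level of 1 TPM with limma, on log2(TPM + 0.01) over all 21990 symbols above 0 in at least 1 library. A gene was called above or below at a Benjamini-Hochberg adjusted p under 0.05, and undecided otherwise. Of the 70 members, 13 were above 1 TPM, 35 below and 8 undecided, and 14 were listed at 0 in all 3 libraries. The 13 made up 23.2% of the 56 members tested, where 58.5% of all symbols tested were called above. The 35 below made up 62.5% of members tested, against 33.9% of all symbols tested. Among tested symbols with a protein-coding transcript, the group most like the members, 71.2% were above and 23.4% below. Over all 70 members the median of the mean TPM was 0.0989, against 6.54 over all symbols with a protein-coding transcript and 0.0994 over all symbols. The members' TPM summed to 132 ± 0.642 (SD, n = 3), and CHRNA5 alone supplied 37.5% of it. A column of estimated counts in the deposited table, which belongs to replicate 1 by its values, assigned 5218 of 33184885 reads to members.

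**Figure D1:**
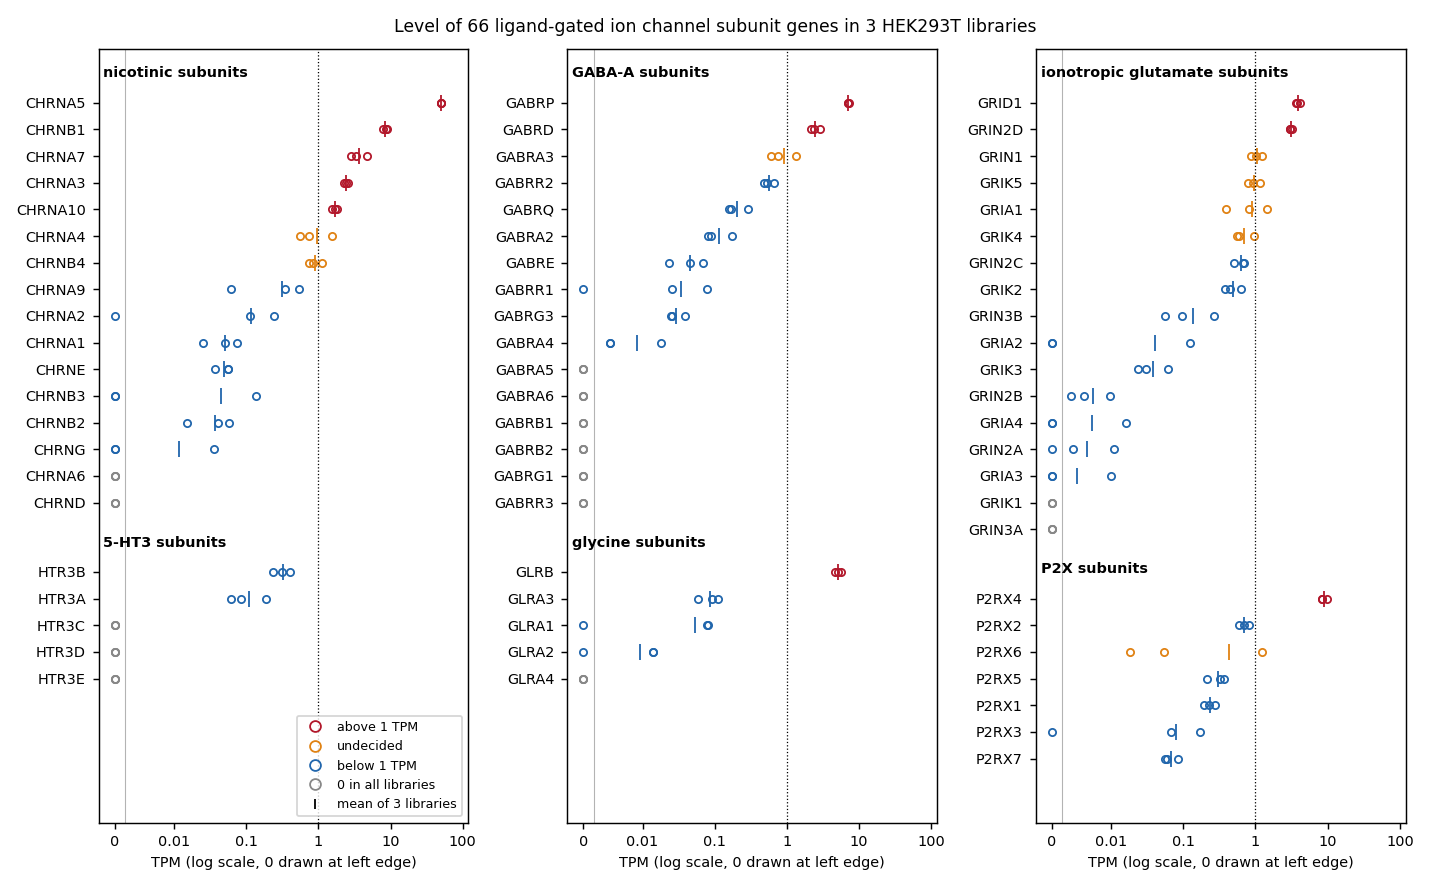
TPM of each of 66 subunit genes on a log axis, with an open circle per library, a tick at the mean, and 0 drawn at the left edge. Colour gives the limma call against 1 TPM (dotted line). CHRNA5 stands to the right of the other genes drawn, and the 14 genes at 0 sit at the left edge.

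Among nicotinic subunits, CHRNA5 had the highest level of any member. It encodes alpha5, an accessory subunit that joins receptors with other alpha and beta subunits and does not form a channel by itself. CHRNA5 (ENSG00000169684.13, chr15:78565520-78595269, plus strand) measured 49.5, 49.3 and 50.2 TPM in replicates 1, 2 and 3, a mean of 49.7 ± 0.471 (SD, n = 3). The libraries differed little, and the lowest was above every value of every other member. In log2 units it lay 5.62 ± 0.02 (SE) above 1 TPM (limma adjusted p = 3.0e-09).

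CHRNB1, the beta1 subunit of the muscle receptor, came next among the nicotinic genes. It measured 9.06, 8.67 and 7.77 TPM in replicates 1 to 3 (limma adjusted p = 1.2e-06). CHRNA5 was 5.46, 5.69 and 6.46 times as high in the same libraries, and the ranges did not overlap. The other subunits of the muscle receptor were far lower: CHRNA1 averaged 0.050 TPM, CHRNE 0.0497 and CHRNG 0.0119, and CHRND was listed at 0. CHRNB1 thus stood, as a sum over its transcripts, at 116 to 311 times CHRNA1, its obligate partner. CHRNA1 had 2 estimated counts in replicate 1, and none of its TPM fell on a coding transcript. Of the 31-base words of CHRNB1 transcripts, 18.4% also occurred in other symbols, the most in AC113189.4, which overlaps CHRNB1 exons on the same strand. The 1095-base protein-coding transcript CHRNB1-207 carried 63.5% of the mean, and 18.3% of its words occurred in other symbols. It spans only chr17:7455594-7457329, near the 3′ end of the gene (chr17:7445061-7457707, plus strand). The 2557-base transcript CHRNB1-201, which spans the gene, averaged 1.67 TPM, and the 1623-base CHRNB1-202 averaged 0.956 TPM.

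CHRNA7 encodes alpha7, which forms channels without other subunits. It measured 3.37, 2.86 and 4.74 TPM, with replicate 3 the highest (limma adjusted p = 0.00049). CHRFAM7A, no member but the gene that shares the capital letters printed above, measured 8.67, 6.98 and 7.99 TPM. Of all CHRNA7 words, 26.3% were shared with other symbols, and for the main transcript CHRNA7-223 the share was 84.5%. How reads from the shared exons were divided between both genes was not tested.

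CHRNA3, the alpha3 subunit of ganglionic receptors, measured 2.56, 2.43 and 2.26 TPM (limma adjusted p = 0.00018). Its usual partner CHRNB4, the beta4 subunit, measured 0.738, 0.854 and 1.10 TPM and was undecided (limma adjusted p = 0.40). CHRNA3 was the higher of both in all 3 libraries, by 3.48, 2.84 and 2.05 times. CHRNA10, which joins alpha9 in hair cell receptors, measured 1.70, 1.78 and 1.57 TPM (limma adjusted p = 0.0025). Its exons overlap those of NUP98, a nuclear pore gene at 69.4 TPM, on the same strand. CHRNA9, the obligate partner of CHRNA10, was below 1 TPM at 0.350, 0.540 and 0.0605, a call lost without replicate 1 (limma adjusted p = 0.12) or replicate 2 (limma adjusted p = 0.059).

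The alpha4 gene CHRNA4 was undecided, with 0.564, 1.56 and 0.731 TPM. In replicate 2 its highest transcript was CHRNA4-216, a 195-base processed transcript at 0.856 TPM that was at 0 in the other libraries. The order below CHRNA10 was therefore not resolved, since the values of CHRNA4 and CHRNB4 overlapped. CHRNB2, the beta subunit that most brain alpha4 receptors contain, averaged 0.0375 TPM. CHRNA2 was below 1 TPM as well, a call lost without replicate 3 (limma adjusted p = 0.073). CHRNB3 was above 0 in replicate 2 alone, at 0.135 TPM, and its call below 1 TPM was lost without replicate 1 (limma adjusted p = 0.058). CHRNA6 was listed at 0. In all, 5 of 16 nicotinic genes were above, 7 below and 2 undecided, with 2 at 0.

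Among GABA-A subunits, GABRP (pi) and GABRD (delta) were above 1 TPM. Both can join alpha and beta subunits in the pentamer, and delta is found mainly in receptors outside synapses. GABRP measured 7.15, 6.98 and 6.92 TPM in replicates 1 to 3 (limma adjusted p = 5.4e-07). GABRD measured 2.37, 2.17 and 2.84 TPM (limma adjusted p = 0.00046). GABRP was higher in every library, but all of it fell on transcripts with an incomplete coding sequence, as described below.

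GABRA3, an alpha subunit of the kind that forms the GABA site together with beta, measured 0.596, 1.35 and 0.757 TPM and was undecided (limma adjusted p = 0.45). Replicate 2 was the highest and the only library above the level. There, the processed transcripts GABRA3-202 and GABRA3-203, of 338 and 384 bases, measured 0.670 and 0.222 TPM. Both were at 0 in the other libraries. On complete coding transcripts, defined below, GABRA3 measured 0.596, 0.458 and 0.757 TPM and was called below 1 TPM (limma adjusted p = 0.010). GABRA2 averaged 0.115 TPM and GABRA4 0.00832, while GABRA5 and GABRA6 were listed at 0. The beta genes GABRB1 and GABRB2 were listed at 0 as well. Of the rho genes, which form channels of their own, GABRR2 was the highest at 0.485, 0.528 and 0.662 TPM and was below 1 TPM, a call lost without replicate 1 (limma adjusted p = 0.051) or replicate 2 (limma adjusted p = 0.053). Across the family 4 of 19 genes were above, 8 below and 1 undecided, with 6 at 0.

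Among ionotropic glutamate subunits, only GRID1 and GRIN2D were above 1 TPM by this test. GRID1 encodes delta1, a relative of the glutamate receptors that binds glycine and D-serine and links to presynaptic partners. It measured 3.65, 3.71 and 4.16 TPM (limma adjusted p = 1.7e-05). GRIN2D, an NMDA receptor subunit prominent early in development, measured 3.17, 2.97 and 3.04 TPM (limma adjusted p = 3.3e-05). GRID1 was the higher of both in all 3 libraries, by 1.15, 1.25 and 1.37 times.

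GRIN1, the subunit every NMDA receptor needs, lay at the level itself with 1.00, 0.854 and 1.24 TPM (limma adjusted p = 0.86). GRIN2D was 2.44 to 3.47 times higher than GRIN1. The other NMDA genes were below 1 TPM: GRIN2C averaged 0.620 TPM (a call lost whichever library was left out), GRIN3B 0.137, GRIN2B 0.00553 and GRIN2A 0.00457. GRIN3A was listed at 0.

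The AMPA receptor genes were near 0 apart from GRIA1, which was undecided. GRIA1 measured 0.393, 1.45 and 0.805 TPM, and 94.9% of its mean came from GRIA1-206, a 419-base processed transcript with 2 estimated counts in replicate 1. GRIA2, GRIA3 and GRIA4 averaged 0.0408, 0.00332 and 0.00539 TPM, and each was above 0 in a single library. Of the kainate receptor genes, GRIK5 and GRIK4 were undecided. GRIK5 measured 0.795, 0.918 and 1.16 TPM, and GRIK4 0.968, 0.548 and 0.589 TPM. Without replicate 1, GRIK4 was called below (limma adjusted p = 0.035). GRIK2, which can form channels alone, was below 1 TPM at 0.487 ± 0.132 (SD, n = 3), a call lost without replicate 3 (limma adjusted p = 0.055). GRIK3 averaged 0.0384 TPM and GRIK1 was listed at 0. The family had 2 of 18 genes above, 10 below and 4 undecided, with 2 at 0.

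GLRB, the beta subunit that anchors glycine receptors to gephyrin, was the only glycine receptor gene above 1 TPM. It measured 5.07, 4.57 and 5.65 TPM (limma adjusted p = 1.1e-05). The alpha subunits, which are needed for a glycine-gated channel, averaged 0.0871 TPM for GLRA3, 0.0527 for GLRA1 and 0.00933 for GLRA2, and GLRA4 was at 0. GLRB was 41.7 to 85.6 times higher than GLRA3. It made up 97.2% of the family's summed TPM.

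No 5-HT3 subunit was above 1 TPM. HTR3B, which needs HTR3A to form a channel, was the highest at 0.407, 0.313 and 0.238 TPM (limma adjusted p = 0.0042), a call lost when symbols at 0 stayed in the test (limma adjusted p = 0.066). HTR3A measured 0.0839, 0.0615 and 0.187 TPM and was lower than HTR3B in all 3 libraries. HTR3C, HTR3D and HTR3E were listed at 0.

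P2RX4, whose ATP-gated channel is found in lysosomes as well as at the cell surface, was the only P2X gene above 1 TPM. It measured 9.88, 8.47 and 8.46 TPM (limma adjusted p = 1.4e-06), and its values overlapped those of CHRNB1. P2RX2 followed at 0.594, 0.698 and 0.808 TPM and was called below (limma adjusted p = 0.045), so P2RX4 was 10.5 to 16.6 times higher. P2RX7, which opens at high ATP, averaged 0.0668 TPM. P2RX6 was the least stable member, with 1.22, 0.0541 and 0.0181 TPM. Its value in replicate 1 came from 2 estimated counts on P2RX6-209, a 242-base processed transcript on which 1 read was worth 0.571 TPM. Without replicate 1, P2RX6 was called below (limma adjusted p = 0.015), and P2RX2 became undecided whichever library was left out (limma adjusted p = 0.064 to 0.12). P2RX5, P2RX1 and P2RX3 were below 1 TPM. The call of P2RX3 was lost without replicate 2 (limma adjusted p = 0.063), and those of P2RX5 (limma adjusted p = 0.066) and P2RX1 (limma adjusted p = 0.054) when symbols at 0 stayed in the test. P2RX5 shared 41.1% of its words with other symbols, the most with the readthrough gene P2RX5-TAX1BP3.

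The 14 genes at 0 in all libraries were CHRNA6, CHRND, GABRA5, GABRA6, GABRB1, GABRB2, GABRG1, GABRR3, GLRA4, GRIK1, GRIN3A, HTR3C, HTR3D and HTR3E. Read support could be given for replicate 1 only. There, 3 counts on the longest complete coding transcript would amount to between 0.0167 TPM (GRIN3A) and 0.0966 TPM (GABRR3), which is the limit that a count of 0 allows for counting error alone.

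The subunits were then grouped into 12 receptor types by the subunits each type needs. Every needed subunit was above 1 TPM for 2 types, the alpha7 nicotinic receptor (CHRNA7) and the P2X receptors (P2RX4). Each of these was counted from 1 gene, and for P2X any of P2RX1 to P2RX5 or P2RX7 sufficed. The muscle nicotinic type and others needed several genes at once, while AMPA and 5-HT3, also counted from 1 gene, did not pass. The main transcript of CHRNA7 shared 84.5% of its words with other symbols, the most with CHRFAM7A. The NMDA receptor had GRIN2D above 1 TPM while GRIN1 was undecided, and the neuronal nicotinic heteromer had CHRNA3 above while CHRNB4 was undecided. At a level of 0.5 TPM, both of these types also had every needed subunit above, giving 4 types. On complete coding transcripts, defined below, GRIN1 averaged 0.187 TPM and CHRNB4 0.45 TPM, both were called below 1 TPM, and the number of types was 2. In the muscle nicotinic and glycine types the gene that was above, CHRNB1 or GLRB, came without its needed alpha subunit above 1 TPM. RNA levels do not show whether a channel is assembled, and no current or protein was measured.

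The transcript behind each level was examined next, because TPM was summed over every annotated transcript of a gene. Transcripts were called complete coding when GENCODE 29 lists them as protein-coding with both ends of the coding sequence. Summed over complete coding transcripts alone, 9 members were above 1 TPM, 35 below and 2 undecided of 46 tested. The 9 were 19.6% of the members tested, against 70.2% of all symbols tested, and the 35 were 76.1%, against 26.2%. Among the genes that kept the call were CHRNA5, P2RX4, CHRNB1, GLRB, CHRNA7, GRIN2D, GABRD and CHRNA3. On these transcripts P2RX4 averaged 3.63 TPM, GLRB 4.25, CHRNA3 1.74, CHRNA7 1.39 and GABRD 1.37, each lower than its full sum. CHRNB1 averaged 8.03 TPM, of which CHRNB1-207 near the 3′ end of the gene carried 5.40. This alternative was chosen after the values were seen.

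**Figure D2:**
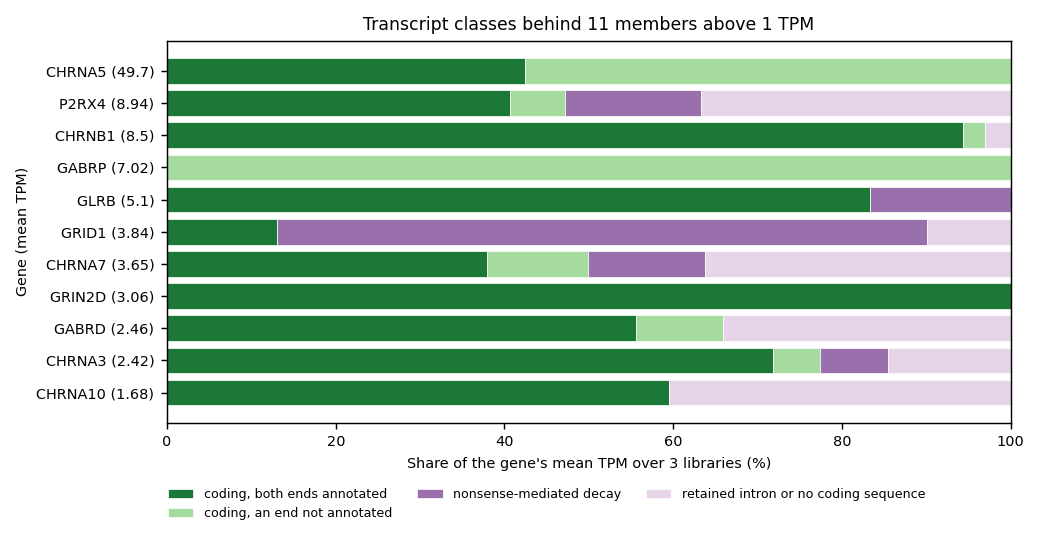
Share of each gene's mean TPM, in percent, carried by 4 classes of transcript, for 11 members above 1 TPM in order of level (mean TPM in brackets). GRIN2D is entirely complete coding, GABRP has none of it and most of GRID1 is assigned to a nonsense-mediated decay transcript.

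GABRP, GRID1 and CHRNA10 were among the genes that lost the call. All of GABRP's TPM fell on 3 transcripts whose coding sequence is annotated as incomplete: GABRP-205, GABRP-208 and GABRP-209, of 689, 456 and 721 bases. They averaged 3.26, 2.01 and 1.75 TPM, while the complete coding transcripts of GABRP were at 0 in every library. Of their words, 28.98%, 68.08% and 76.27%, in the same order, occurred in complete coding transcripts of the gene. Most of the words of GABRP-205 thus lay outside those transcripts. Other symbols held 14.11%, 13.85% and 0.579% of the words, for GABRP-205 and GABRP-208 the most in CYP1B1-AS1. In GRID1, the nonsense-mediated decay transcript GRID1-202 carried 77.0%, with 2.75, 2.93 and 3.20 TPM, and the complete transcript GRID1-201 averaged 0.501 TPM. GRID1-202 shared 98.7% of its words with complete coding transcripts of the gene, so few positions separate both forms. CHRNA10 averaged 1.00 TPM over complete coding transcripts, the level itself.

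CHRNA5, the highest member, was also a mixture. In it, the 705-base transcript CHRNA5-202, whose coding start is not annotated, carried 56.0% with 26.1, 29.7 and 27.6 TPM. The complete transcripts CHRNA5-201 and CHRNA5-203 averaged 12.2 and 8.83 TPM, so the complete coding sum of CHRNA5 was 21.1 TPM. Of the words of CHRNA5-202, 96.0% occurred in complete coding transcripts as well. On complete coding transcripts, CHRNA5 still had the highest level of all members.

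The most abundant transcript was the same in all 3 libraries for 10 of the 14 members averaging at least 1 TPM. GABRD, CHRNA10 and GRIN1 were among those in which it differed. GRIN2D had all of its TPM on the single complete transcript GRIN2D-201. For GRIN1, complete coding transcripts made up 18.1% of the mean, and its highest transcript was a different retained intron or processed transcript in each library.

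Many members lie beside each other in the genome, so levels were compared along 13 clusters of members no more than 1 Mb apart, holding 35 genes. Only the CHRNA5, CHRNA3 and CHRNB4 cluster on chromosome 15 had more than 1 gene above 1 TPM. CHRNA5 was 19.3, 20.3 and 22.2 times higher than CHRNA3, although the genes are adjacent and overlap at their ends on opposite strands. P2RX4 was 117 to 151 times higher than its neighbour P2RX7 on chromosome 12. GLRB on chromosome 4 was above 1 TPM at 5.10 while GRIA2 beside it averaged 0.0408 TPM. Neighbouring subunit genes had unlike levels in these 3 clusters. Each of them held a gene above 1 TPM, and most members were below, so a lower neighbour was likely in advance. Of the 35 clustered genes 6 were above 1 TPM, against 13 of all 70 members. Whether position and level go together was not tested.

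**Figure D3:**
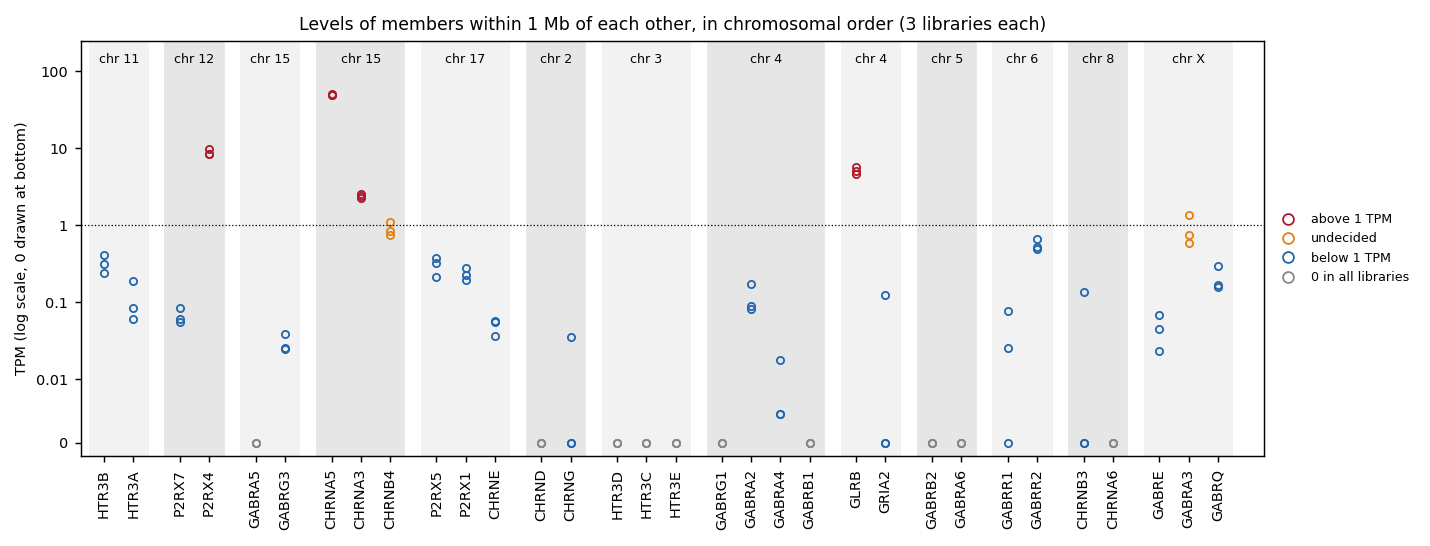
TPM on a log axis (0 at the bottom) of 32 members that lie within 1 Mb of another, in chromosomal order and with a circle per library; shading separates the 13 clusters. In each of the 3 clusters with a red gene, at least 1 neighbour lies below it with no overlap.

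Promoter windows from RefSeq could be matched for 46 of the 70 members. The CG count in the 250 bases before the start had a median of 9.5 over these members, against 11 over all 35116 promoters in the table and 17 over symbols with a protein-coding transcript. At least 15 CG were found in 4 of 8 members above 1 TPM, 11 of 24 below, 2 of 4 undecided and 0 of 10 listed at 0. That is 37.0% of all matched members, against 42.9% of all promoters and 55.3% of those of symbols with a protein-coding transcript. CHRNA10, above 1 TPM, held 1 CG, while GABRE, below 1 TPM, held 31. In 27 of the 46 windows an exon of GENCODE 29 overlapped the window, so not every window lay outside annotated exons. These counts describe the letters only.

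Genes that assemble, anchor or modify these receptors, or that make, load or remove transmitters, were taken as 6 lists of 83 genes in all. Of these, 42 were above 1 TPM, 29 below and 7 undecided, and 5 were listed at 0. The 42 were 53.8% of the 78 tested, against 58.5% of all symbols tested and 71.2% of those with a protein-coding transcript. Lists differed widely, from 11 of 13 above for GABA-A and glycine receptor assembly and clustering to 2 of 12 for transmitter synthesis and loading.

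In the GABA-A and glycine list, the highest were GABARAP, which takes part in receptor trafficking, at 255 ± 8.28 TPM (SD, n = 3), the ubiquitin-like protein UBQLN1 at 87.8 ± 0.991, CLPTM1, which holds subunits in the endoplasmic reticulum, at 84.6 ± 2.08 and the palmitoyltransferase ZDHHC3 at 71.5 ± 2.63. Gephyrin (GPHN), the scaffold to which GLRB binds, averaged 19.8 TPM. LHFPL4, a receptor partner at inhibitory synapses, was listed at 0, and PLCL1 at 0.667 TPM was the lowest above 0. Several of these also have general roles in membrane traffic.

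In the nicotinic list, 5 of 11 were above 1 TPM, led by CRELD2 at 57.3 ± 1.82 and agrin (AGRN) at 42.2 ± 1.65 TPM (SD, n = 3). The chaperones RIC3 and TMEM35A (NACHO), which promote alpha7 assembly, were both below 1 TPM. RIC3 measured 0.826, 0.571 and 0.481 TPM (limma adjusted p = 0.038). TMEM35A measured 0.0213, 0.0418 and 0.0210 TPM, the lowest of the list above 0. CHRNA7 was thus above 1 TPM in the same libraries in which both chaperones were below, though the call of RIC3 was near the threshold. RAPSN, the anchor of the muscle receptor, averaged 0.205 TPM, and its kinase MUSK was listed at 0.

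For glutamate receptors, 8 of 18 AMPA and kainate auxiliary genes and 9 of 12 scaffolds were above 1 TPM. The kainate auxiliary subunit NETO2 reached 46.3 ± 2.47 TPM (SD, n = 3), while its paralog NETO1 was listed at 0, as was SHISA6. CPT1C, which interacts with AMPA receptors, averaged 19.5 TPM, of which none fell on complete coding transcripts, and ABHD6 averaged 12.4 TPM. CACNG2 (stargazin) was the lowest above 0 at 0.0192 TPM. Among scaffolds, PICK1 averaged 43.6, DLG1 35.4, DLG3 30.1 and HOMER1 19.3 TPM, and DLGAP1 was the lowest at 0.372 TPM. The auxiliary and scaffold genes at these levels stood against AMPA genes that were undecided or below 1 TPM.

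Of the genes for transmitter synthesis and loading, GAD1, which makes GABA, averaged 14.4 ± 0.549 TPM (SD, n = 3) and the glutamate transporter gene SLC17A7 1.51 TPM. The vesicular GABA transporter SLC32A1 averaged 0.0117 TPM, SLC17A8 was the lowest above 0 at 0.00368 and SLC17A6 was listed at 0. Among removal genes, 7 of 17 were above 1 TPM, led by the glutamate transporter SLC1A3 at 29.8 ± 0.852 and the glycine transporter SLC6A9 at 12.6 ± 1.31 TPM. The neuronal glycine transporter SLC6A5 was the lowest at 0.00204 TPM.

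**Figure D4:**
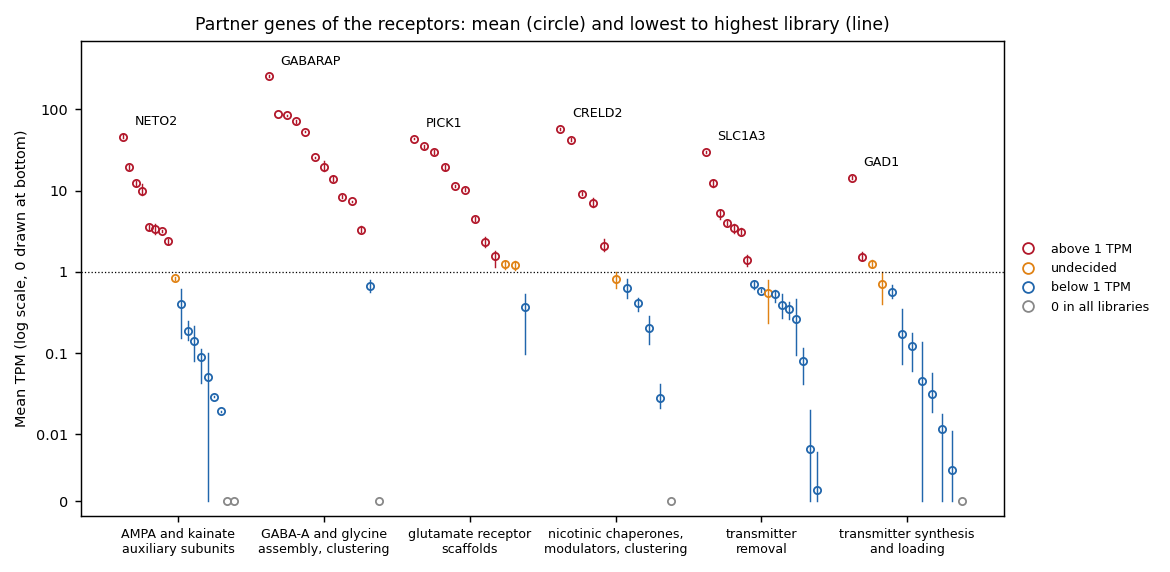
Mean TPM on a log axis (0 at the bottom) of the 83 partner genes in 6 lists, with lines from the lowest to the highest library and colour for the limma call against 1 TPM. The highest gene of each list is named: NETO2, GABARAP, PICK1, CRELD2, SLC1A3 and GAD1.

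Marker genes describe the cells in which these subunits were measured. Of 6 neuron markers, 4 were above 1 TPM, with NEFM the highest at 99.97 TPM, while MAP2 at 0.240 TPM and SNAP25 at 0.0150 TPM were below. Of 5 kidney markers, LRP2, WT1 and PAX2 were above 1 TPM, with LRP2 the highest at 7.24, and UMOD and AQP2 were listed at 0. Of 4 glia markers GFAP was above, at 1.61 TPM, of which complete coding transcripts made up 0.0139 TPM. For PAX2 they made up 0.839 of 1.57 TPM. None of the 5 skeletal muscle, 4 blood, 3 endothelium or 4 fibroblast markers was above 1 TPM, and the highest of each were ACTA1 at 0.983, CD14 at 0.405, PECAM1 at 0.270 and DCN at 0.339 TPM. The part of these markers in the subunit levels was not tested.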

How the data were processed

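Per the submitters' processing notes, kallisto and the hg38 build were used for the 3 HEK293T libraries. Which version of kallisto and which transcript set is not given in the sources used here. Per the file headers, the deposited table gives TPM per transcript for each library, the authors' mean TPM, transcript and effective lengths, and 1 column of estimated counts deposited by the authors. That column carries no library name. After division by effective length it matched replicate 1's TPM to a relative 1.1e-05, and its total was 33184885. No per-library counts were used, so no count model was run, and depth is unknown for replicates 2 and 3.

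Transcript TPM were added up per symbol. Transcript types and positions came from GENCODE 29, which may not be the authors' release: 588 of 596 member transcripts matched by identifier and 5 more were copies of matched ones. Levels were tested with limma 3.58.1 (R 4.3.3), which compared log2(TPM + 0.01) with its value at 1 TPM in a two-sided moderated test, with the prior variance following mean level. Differences on this scale understate those of low genes. Ratios between genes are given per library without a test, since 3 libraries allow an exact two-sided sign-flip p of 0.25 at the lowest. Shared sequence was the percent of 31-base words found in transcripts of other symbols. The test was tested on simulated data. The simulation, not the test, was rewritten after its first form, with nearly all genes at the level itself, recovered none of the lower genes. Its simulated spread was made smaller at the same time, and the rewritten form recovered most changed genes at the original spread too. Any member could be named, but 4 are not reported here. Members above 1 TPM or undecided, and the highest of each family, have values per library. From each partner list come up to 4 genes above 1 TPM with at least 10 TPM and the lowest above 0, and genes listed at 0 and a few others (GPHN, RIC3, RAPSN, SLC32A1, SLC17A7) were named after their values were seen. Members, lists and tests were chosen with earlier results of these data known. Alternatives were other pseudocounts (0.1 and 1), levels (0.5 and 2 TPM), filters, scaling, transcript classes, no trend and leaving out each library.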

Additional observations from a re-analysis of the deposited data

How the results depend on the processing

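The count of members above 1 TPM stayed between 9 and 16 under every alternative, and it was 13 without each replicate in turn. Members below 1 TPM numbered 28 to 31 without a replicate, against 35, 26 at a level of 0.5 TPM, and 14 when symbols under a mean of 0.1 TPM were left out, which removes low genes by construction. With symbols at 0 kept they numbered 38, but 14 of these were at 0 in all libraries and 11 of the 35 became undecided, among them CHRNA2, CHRNA9, GABRQ, GABRR2, GRIK2, GRIN2C, HTR3B, P2RX1, P2RX2 and P2RX5. Leaving out symbols under a mean of 0.1 TPM left 17 partner genes below, and so did a level of 0.5 TPM, against 29. Keeping symbols at 0 left 20, and leaving out replicate 1, 2 or 3 left 22, 21 or 24. At 0.5 TPM, 4 receptor types had every needed subunit above, against 2. Changes of sign were counted for 20 reported members, those above 1 TPM or undecided and HTR3B. Among them, differences from the level, in log2 units, changed sign with a change of call in 10 comparisons. On both complete coding and all protein-coding transcripts GRID1 was at -1.01, GRIN1 at -2.37 and CHRNA10 at -0.0018. At 2 TPM CHRNA10 was at -0.25 and GRIN1 at -0.96, and at 0.5 TPM CHRNB4 was at 0.81 and GRIK5 at 0.91, as the level itself moved. In 9 more the sign changed while the gene stayed undecided: CHRNA4, GABRA3, GRIA1 and GRIK4 at 0.5 TPM, CHRNA4, GABRA3, GRIA1 and GRIK5 without replicate 1, and GRIN1 without replicate 3. GABRP, GRIA1 and P2RX6 had no value on complete coding transcripts, where they were listed at 0. At 2 TPM GABRD and CHRNA10 were undecided. Over 255 comparisons of the same 20 members, 224 kept the call. Members called below 1 TPM other than HTR3B were not part of these comparisons. Short transcripts, on which 1 read is worth much TPM, and unknown depth in replicates 2 and 3 limit the low values. No paired analysis was possible because all 3 libraries form a single group.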
